A study of Sus scrofa with 12 samples.

Results

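The genes described here act in the endoplasmic reticulum (ER) and Golgi, where cells make, fold and ship proteins destined for membranes and for secretion. They were chosen by gene symbol: subunits of the signal recognition particle, the SEC proteins, the signal peptidase and translocon-associated complexes, the protein disulfide isomerases, calnexin and calreticulin, the collagen prolyl hydroxylases and the collagen chaperone SERPINH1, the COPII and COPI coats, the p24 (TMED) proteins, the ARF and SAR1 GTPases and the KDEL receptors. The symbols found 60 genes among the 6765 named genes on the array, with 102 probe sets in all. Each gene is given by the probe set with the highest mean over the 12 arrays. P4HB and P4HA1, which the same symbols would take in, were not among the genes found.

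A protein bound for secretion carries a signal sequence that the signal recognition particle captures as it leaves the ribosome. The particle docks the ribosome at the ER membrane, the protein is threaded through the SEC61 channel, the signal peptidase removes the signal sequence, and chaperones, lectins and disulfide isomerases fold the chain. Vesicles with a COPII coat carry the cargo to the Golgi, and vesicles with a COPI coat bring escaped ER proteins and recycling machinery back. Fibroblasts, which secrete collagen, and secretory cells in general are known for an extended ER, and collagen needs its own hydroxylases and chaperone.

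RNA was measured on the Affymetrix porcine genome array in 4 groups of pig cells, each with 3 arrays that the labels call biological replicates. Mature adipocytes (MA) were taken from fat tissue, and dedifferentiated fat cells (DFAT) were derived from MA in ceiling culture, in which buoyant fat cells attach to the top of a filled vessel. Granulosa cells (GC) came from ovarian follicles, and their dedifferentiated descendants (DFOG) were grown in vitro. Both cultured groups were collected at semiconfluence, so that dedifferentiation and growth in a dish cannot be told apart. The labels name no genotype, treatment, age or animal, and p-values therefore reflect how far these samples spread, for biological or technical reasons.

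DFOG replicates 2 and 3 were nearly identical, with an SD of their log2 differences of 0.07, where 11 other replicate pairs gave 0.31 to 0.62. Their mean was counted as 1 sample, so that DFOG has n = 2, the other groups have n = 3, and 11 samples enter each test. In every gene below, the first DFOG value is replicate 1 and the second is the mean of replicates 2 and 3. Levels are log2 values, so that a difference of 1 is a doubling, and a change is given ± its standard error (SE) from a linear model fitted with limma to all 23999 tested probe sets. A gene is said to have risen, fallen or changed only at an adjusted p (Benjamini-Hochberg, over all tested probe sets) under 0.05.

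Most of the 60 genes were strongly expressed. Their median level over the 12 arrays was 10.51, against 6.53 for all tested probe sets, and it lay between 9.93 and 10.91 on every array. By array it was 10.21, 10.23 and 10.34 in MA, 10.91, 10.55 and 10.49 in DFAT, 10.39, 10.04 and 9.93 in GC and 10.76, 10.63 and 10.61 in DFOG, so that each cultured array lay above each array of the cells it came from. A level of at least 6 in at least 2 samples was reached by 58 of them. COPB2, a COPI subunit, and SPCS2, a signal peptidase subunit, stayed below 6 on all arrays on their only probe sets, where a level cannot be told from background.

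Marker genes followed the labels in part. All 5 measured adipocyte markers fell in DFAT, and ADIPOQ, which encodes adiponectin, fell by 8.21 ± 0.37 (adjusted p = 5.52e-08). In DFOG, 6 of 9 granulosa markers fell. CYP19A1, FOXL2 and INHBA, markers of granulosa cells as well, were not called in any of these comparisons. Of 6 measured fibroblast markers 5 rose in both cultures, and their mean level was 7.69 to 8.81 in MA, 10.79 to 11.41 in DFAT, 5.38 to 5.70 in GC and 9.59 to 9.77 in DFOG. The mean of the 7 measured macrophage markers was 5.46 to 6.65 in MA and 4.04 to 4.36 in all samples of the other groups, and 6 of them fell in DFAT. Endothelial markers, 7 measured, averaged 5.57 to 6.13 in MA, 4.92 to 5.18 in DFAT, 4.53 to 4.63 in GC and 4.89 to 4.92 in DFOG. Of 3 measured theca cell markers, CYP17A1, INSL3 and STAR, 1 fell in DFOG. Their mean level was 6.04 to 6.32 in GC and 4.94 to 5.24 in DFOG, while INSL3 by itself had a mean of 8.84 in GC and 5.83 in DFOG. In whole-sample RNA, fewer cells of a type and less RNA per cell cannot be told apart, and the part that other cell types play in the results below was not tested.

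In the fat lineage the secretory genes rose more often than they fell. From MA to DFAT 22 of the 60 rose and 8 fell, and 30 did not pass the test. The rises make up 36.7% of the genes, against 15.7% of all tested probe sets and 20.7% of all named genes taken in the same way. The falls make up 13.3%, against 16.4% and 20.4%. In either direction 50.0% were called, against 32.1% of all tested probe sets. Many of those probe sets are low. Among probe sets at or above 6 in at least 2 samples, 31 of 58 genes were called, against 44.6% of those probe sets. The median change was 0.34, against -0.07 for all tested probe sets, and 15 of the 30 changes were at least 2-fold. The largest rises were those of P4HA2, SEC24D, KDELR3, TMED3 and SERPINH1, and the falls included those of SEC31B, COPG2, SAR1B and SEC63. Without regard to the test, 31 genes were higher in every DFAT sample than in every MA sample, and 10 were lower, against 20.2% and 23.8% of all tested probe sets.

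Signs of RNA quality moved with this comparison. The actin probe sets at the 3′ end exceeded those at the 5′ end by 1.5 to 2.47 in MA and by 0.33 to 0.97 in DFAT, and a larger difference is what shorter RNA gives. With that difference as a covariate 17 genes were called, all of them among the 30, with 11 rises and 6 falls. Of all tested probe sets that setting called 21.6%, against 32.1% without the covariate. The actin ranges of MA and DFAT do not overlap, so RNA quality and culture cannot be told apart by it. Leaving out single arrays, 24 of the 30 kept their call throughout. The others lost it in at least 1 such run: CANX without DFAT 2, COPZ2 without MA 1 or DFAT 3, SEC31A without MA 2, MA 3 or DFAT 1, SRP9 without MA 1, MA 2 or DFAT 1, SRP68 without any 1 of 6 arrays and COPB1 without any 1 of 8.

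Granulosa cells showed a similar balance. From GC to DFOG 21 of the 60 genes rose, 4 fell and 35 did not pass. Rises make up 35.0%, against 12.3% of all tested probe sets and 17.3% of named genes, and falls 6.67%, against 12.6% and 13.4%. In either direction 41.7% were called, against 24.9%. Among probe sets at or above 6 in at least 2 samples, 24 of 58 genes were called, against 35.8% of those probe sets. The median change was 0.35, against -0.02 for all tested probe sets, and 13 changes were at least 2-fold. SEC24D, KDELR3 and P4HA2 were among the largest rises, and SEC31B, COPG2, TMED4 and SRP19 were the genes that fell. Every DFOG sample was above every GC sample in 29 genes and below in 6, against 23.9% and 25.1% of all tested probe sets.

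The actin difference was 0.72 to 1.76 in GC and 0.15 to 0.64 in DFOG, again without overlap. With it as a covariate 13 of the 25 genes kept their call, 11 of them rises. Of all tested probe sets that setting called 18%, against 24.9% without the covariate. DFOG 1 weighs on the count: without it 15 genes were called, and the 10 that lost their call in at least 1 such run were ARF6, COPG1, KDELR2, SEC31B, SEC61G, SRP14, SRP19, SRP72, TMED2 and TMED5, each of them without DFOG 1.

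The authors' normalization gives all arrays 1 distribution, so a direction is set against the rest of the measured RNA. Poly-A controls, bacterial transcripts added to the RNA before labelling, offer another scale. Their mean level was 8.42 in MA, 7.80 in DFAT, 7.06 in GC and 7.87 in DFOG. Centring the arrays on them moved the median of all probe sets to 0.56 in DFAT minus MA and to -0.82 in DFOG minus GC. On that scale 36 of the 60 genes rose and 1 fell in DFAT, while 3 rose and 13 fell in DFOG. Of all tested probe sets 34% were called in DFAT and 45.8% in DFOG, in either direction. The 3 that rose in DFOG on both scales were KDELR3, SEC14L2 and SEC24D. The distance between the median of the 60 genes and that of all probe sets stayed at 0.41 in the fat and 0.36 in the granulosa comparison, so the changes below are relative to that median.

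**Figure D1:**
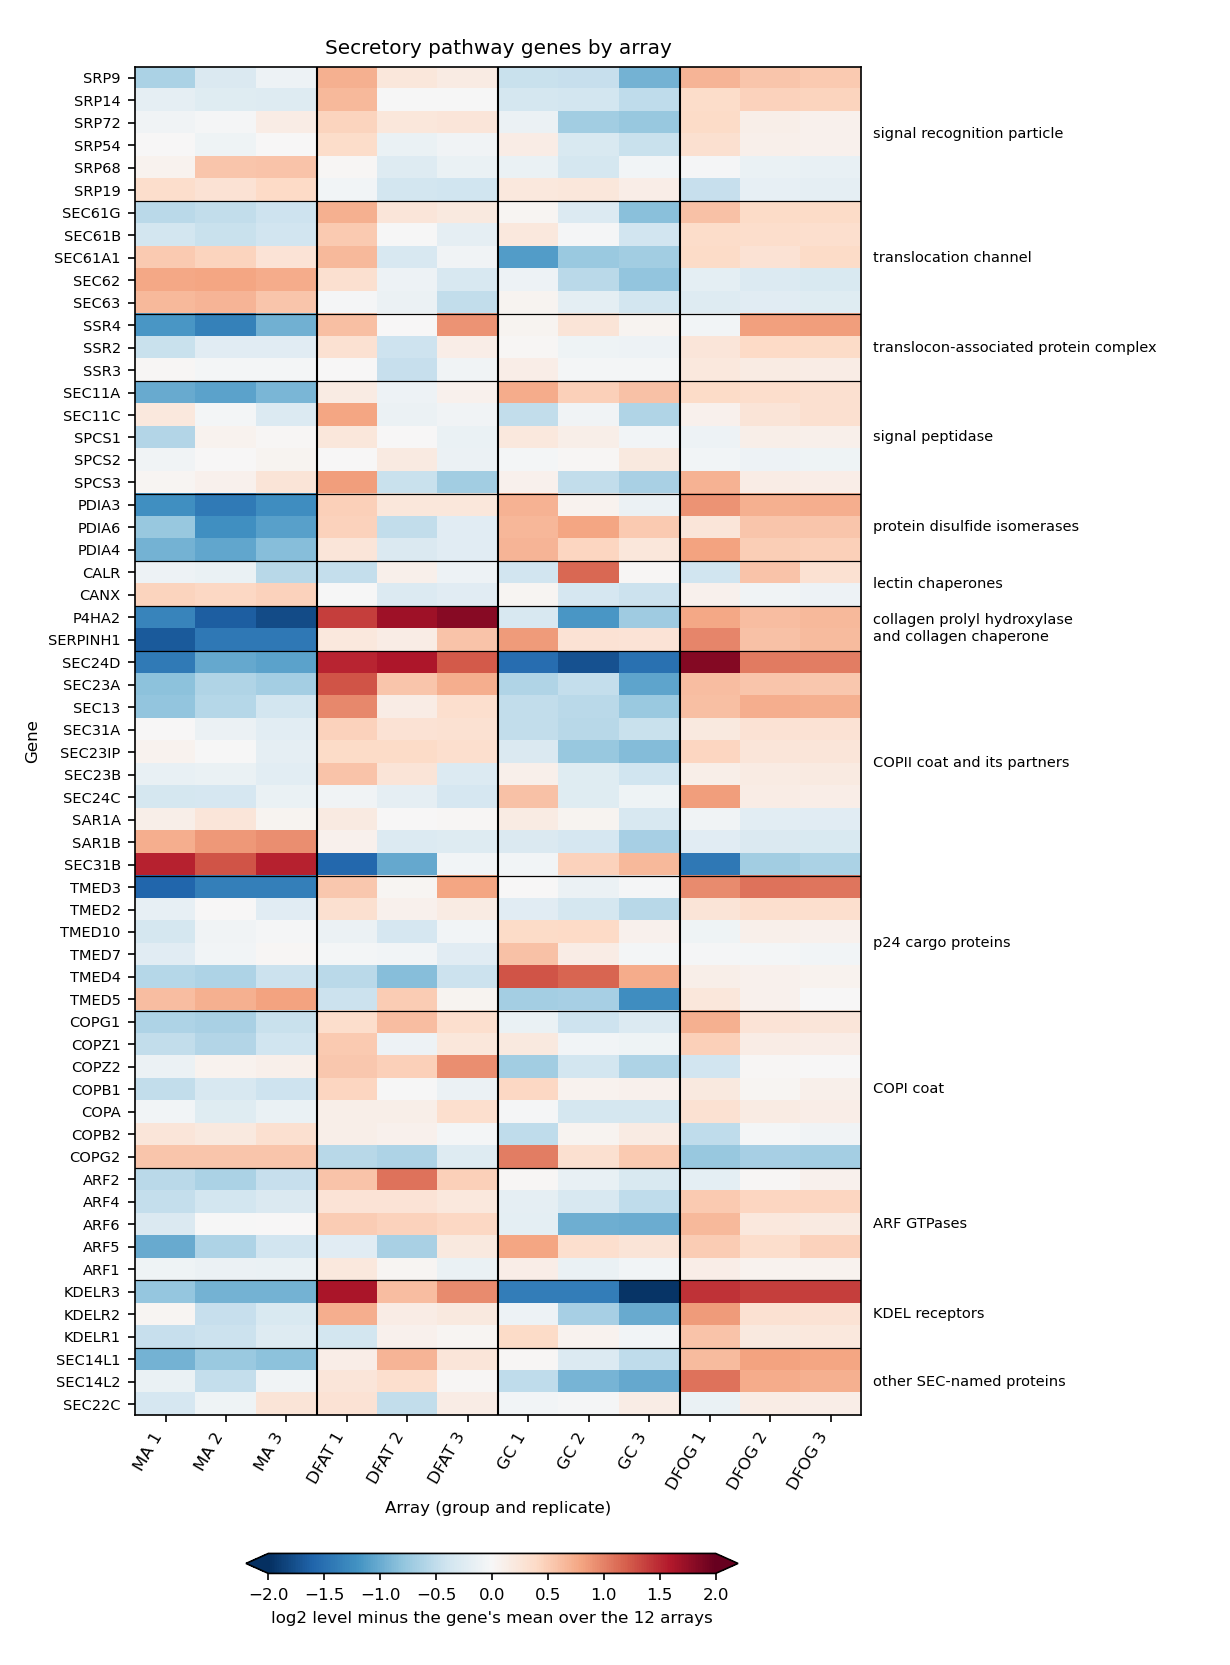
Level of each of the 60 genes on each of the 12 arrays, as the log2 level minus the gene's mean over the arrays (red above, blue below), with the genes grouped by role and sorted by their DFAT minus MA change. KDELR3, SEC24D, SEC23A and SEC13 are red in both cultured groups, while SERPINH1 and the 3 disulfide isomerases are darkest blue in MA.

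The 2 culture comparisons share no samples, and part of the response was common to both. In both, 12 genes rose: ARF4, COPG1, KDELR3, P4HA2, SEC13, SEC14L1, SEC23A, SEC24D, SEC31A, SEC61G, SRP9 and TMED3. They are 54.5% of the genes that rose in fat cells and 57.1% of those that rose in granulosa cells, and 20.0% of the 60, against 5.91% of all tested probe sets that rose in both. COPG2, SEC31B and SRP19 fell in both, which is 5.00% against 4.04%. Many of the tested probe sets are low, and shares among probe sets of higher level were not computed for the patterns in this paragraph. On the probe sets used here no gene was called in opposite directions, a pattern that 3.01% of all tested probe sets showed. At an unadjusted p under 0.05 in limma, TMED5 alone had it, and of the genes' other probe sets 1, of CANX, fell in DFAT and rose in DFOG. The common part was smaller in other settings. With the actin covariate described above 5 of the 12 rose in both (KDELR3, P4HA2, SEC23A, SEC24D and TMED3), and on the poly-A scale 2 did (KDELR3 and SEC24D). The actin difference separated isolated from cultured arrays in each lineage. RNA quality and culture therefore cannot be told apart with that covariate. Of the 3 that fell in both, COPG2 alone did so with the covariate and SEC31B alone on the poly-A scale, where COPB1, PDIA6 and SEC11A rose in DFAT and fell in DFOG. The remaining calls were made in 1 lineage: 15 genes in fat cells, 10 in granulosa cells. In fat cells alone 10 rose and 5 fell, or 16.7% and 8.33%, against 8.34% and 10.8% of all tested probe sets. In granulosa cells alone 9 rose and 1 fell, or 15% and 1.67%, against 4.85% and 7.08%. In neither were 20 genes called, or 33.3%, against 56.0% of all tested probe sets.

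**Figure D2:**
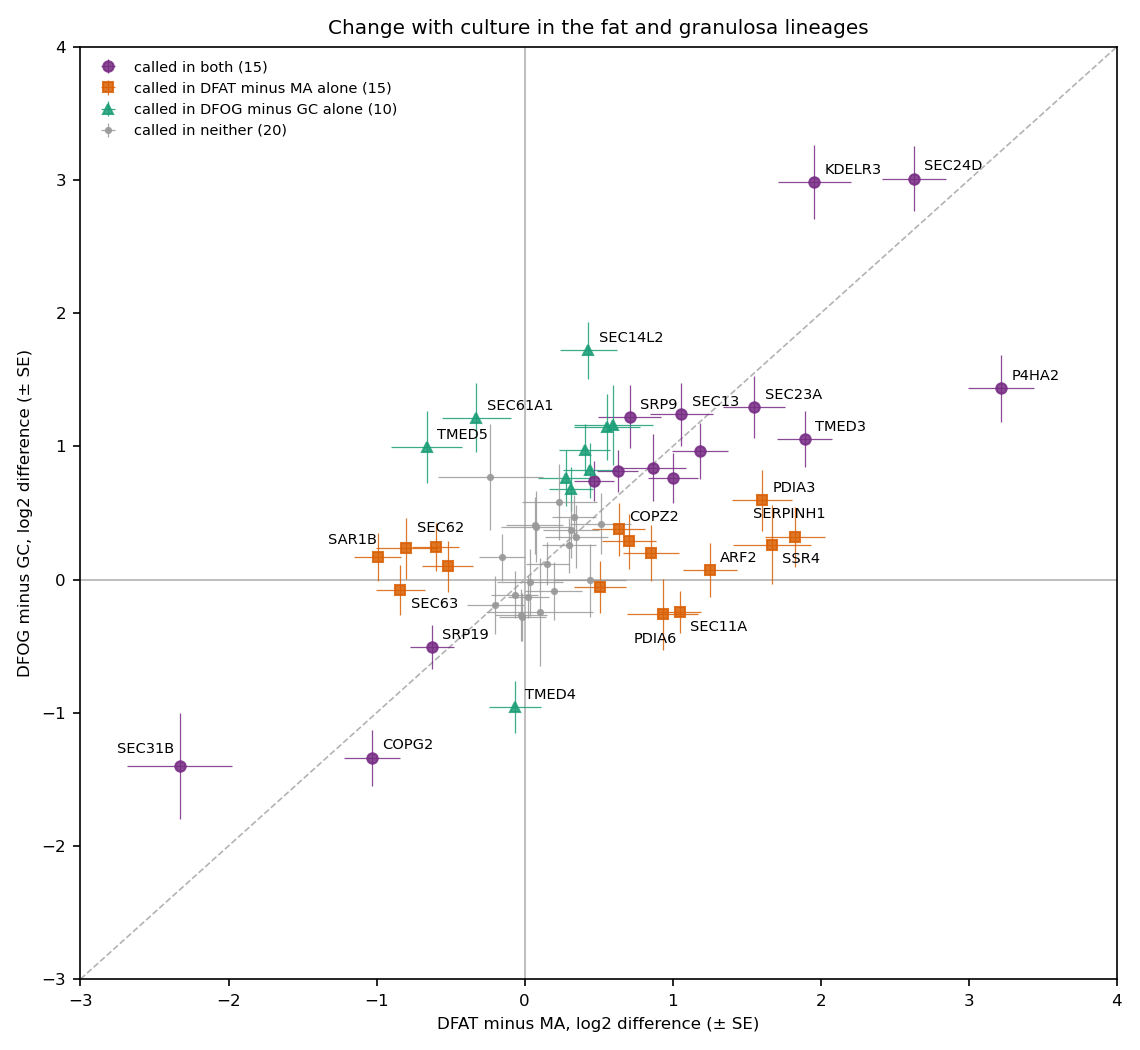
Log2 change from GC to DFOG against the log2 change from MA to DFAT for the 60 genes, each with its SE from the fit, with a dashed line of equal change and the genes marked by the comparisons in which they were called. KDELR3 and SEC24D lie at the upper right, COPG2 and SEC31B at the lower left, and SERPINH1, SSR4 and PDIA3 lie to the right near the horizontal line.

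The signal recognition particle, an RNA-protein complex, is represented by 6 genes. SRP9, which with SRP14 pauses elongation on the ribosome, measured 9.69, 10.03 and 10.22 in the MA samples and 11.04, 10.55 and 10.49 in DFAT. It measured 9.88, 9.87 and 9.38 in GC and 11.00 and 10.86 in DFOG. In both lineages the cultured samples were all higher, without overlap. SRP9 rose by 0.71 ± 0.21 (adjusted p = 0.0243) in DFAT and by 1.22 ± 0.24 (adjusted p = 0.00294) in DFOG. Its partner SRP14 rose by 0.82 ± 0.20 (adjusted p = 0.0126) in DFOG, and its change in DFAT was 0.44 ± 0.18 (adjusted p = 0.093).

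SRP19, which helps assemble the particle on its RNA, went the other way. Its level was 10.96, 10.90 and 11.01 in MA and 10.55, 10.24 and 10.20 in DFAT, and 10.83, 10.83 and 10.74 in GC and 10.15 and 10.43 in DFOG. No cultured sample reached the level of its isolated counterparts. SRP19 fell by 0.63 ± 0.15 (adjusted p = 0.00694) in DFAT and by 0.51 ± 0.17 (adjusted p = 0.0461) in DFOG, and the call in DFOG was lost without any 1 of 9 arrays. Its other probe set was not called in either. SRP68 and SRP72 form a pair in the particle: SRP68 fell by 0.52 ± 0.17 (adjusted p = 0.0403) in DFAT and SRP72 rose by 0.76 ± 0.21 (adjusted p = 0.0208) in DFOG. Neither call was repeated by another probe set of the same gene. SRP54, the subunit that binds the signal sequence, was not called, with 0.07 ± 0.19 (adjusted p = 0.832) in DFAT and 0.41 ± 0.22 (adjusted p = 0.219) in DFOG.

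Of the 5 genes of the translocation channel 1 rose and 2 fell in DFAT, and 2 rose in DFOG. Among all tested probe sets 15.7% rose and 16.4% fell in DFAT, and 12.3% rose in DFOG, so the 1 rise in DFAT is near the background. SEC61A1, which forms the pore, measured 11.36, 11.29 and 11.11 in MA, 11.49, 10.53 and 10.77 in DFAT, 9.72, 10.10 and 10.14 in GC and 11.22 and 11.17 in DFOG. The GC samples lie below all others, and MA, DFAT and DFOG overlap. SEC61A1 rose by 1.21 ± 0.26 (adjusted p = 0.00526) in DFOG, and its change in DFAT was -0.33 ± 0.23 (adjusted p = 0.336). The small subunit SEC61G rose by 0.87 ± 0.22 (adjusted p = 0.0115) in DFAT and by 0.84 ± 0.25 (adjusted p = 0.03) in DFOG. Its other probe set, with a mean level of 4.14, was called in neither. SEC61B, the other small subunit, did not pass, with 0.51 ± 0.21 (adjusted p = 0.0821) in DFAT and 0.42 ± 0.23 (adjusted p = 0.237) in DFOG.

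SEC62 and SEC63 help chains through the channel that arrive after translation or with weak signals. SEC62 measured 11.28, 11.30 and 11.26 in MA and 10.84, 10.41 and 10.20 in DFAT. In granulosa cells it measured 10.42, 9.98 and 9.73 before and 10.32 and 10.23 after culture. The MA samples stand above all the rest, and GC and DFOG overlap. SEC62 fell by 0.80 ± 0.21 (adjusted p = 0.0118) in DFAT, with 0.23 ± 0.23 (adjusted p = 0.556) in DFOG.

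SEC63 levels were 11.32, 11.35 and 11.22 in MA, 10.64, 10.56 and 10.18 in DFAT, 10.72, 10.48 and 10.30 in GC and 10.41 and 10.44 in DFOG, again with MA alone at the top. It fell by 0.84 ± 0.17 (adjusted p = 0.00255) in DFAT, and in DFOG its change was -0.07 ± 0.19 (adjusted p = 0.853). All 3 of its probe sets fell in DFAT.

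The translocon-associated protein complex sits beside the channel and helps some chains enter. Its subunit SSR4 measured 11.37, 11.18 and 11.57 in MA and 13.15, 12.55 and 13.44 in DFAT, with every DFAT sample above every MA sample. In GC it measured 12.59, 12.80 and 12.60, and the DFOG samples, at 12.48 and 13.37, lay on either side of these. SSR4 rose by 1.67 ± 0.26 (adjusted p = 0.000527) in DFAT and did not pass in DFOG, with 0.26 ± 0.30 (adjusted p = 0.622). SSR2 and SSR3, its other measured subunits, were not called in either, with changes between -0.15 and 0.37.

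Of 5 signal peptidase genes only SEC11A was called in a culture comparison, in DFAT, where 15.7% of all tested probe sets rose, so the count is near the background. SEC11A encodes a catalytic subunit and measured 10.05, 9.99 and 10.15 in MA, 11.23, 10.96 and 11.15 in DFAT, 11.81, 11.55 and 11.65 in GC and 11.45 and 11.40 in DFOG. The MA samples are the lowest and the GC samples the highest, without overlap. SEC11A rose by 1.05 ± 0.14 (adjusted p = 0.000156) in DFAT, while its change in DFOG was -0.24 ± 0.16 (adjusted p = 0.326). SEC11C, the alternative catalytic subunit, did not pass, with 0.23 ± 0.25 (adjusted p = 0.544) in DFAT and 0.58 ± 0.28 (adjusted p = 0.177) in DFOG. SPCS1, SPCS2 and SPCS3, the accessory subunits, were not called in any comparison, and SPCS3 ranged from 9.60 to 11.14 over the arrays.

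**Figure D3:**
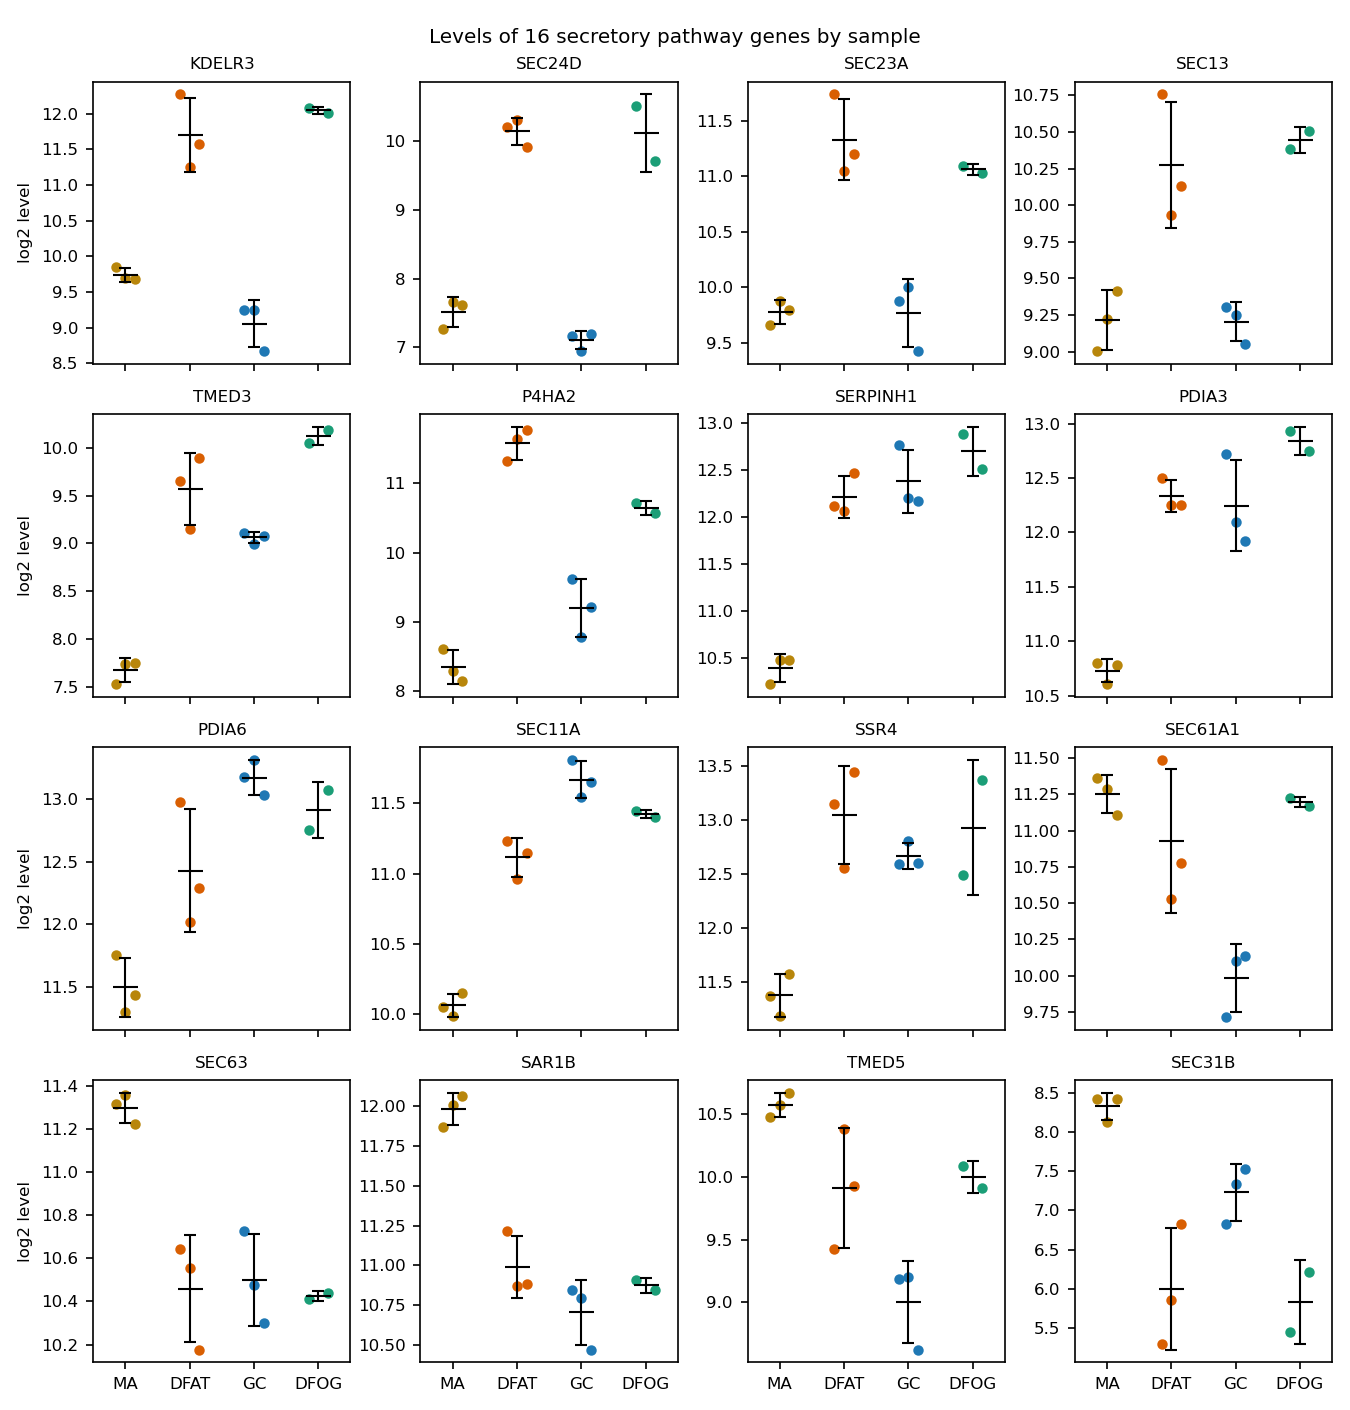
Log2 levels of 16 of the genes in every sample of the 4 groups (points; DFOG replicates 2 and 3 as their mean), with bars for the mean ± SD of 3 samples, or 2 in DFOG, and an axis of its own for each gene. KDELR3, SEC24D, SEC23A and SEC13 are high in both cultured groups, SERPINH1, PDIA3, SEC11A and SSR4 are low in MA, and SEC63 and SAR1B are high in MA.

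All 3 protein disulfide isomerases found by symbol rose in fat cells. PDIA3, which acts on glycoproteins held by calnexin or calreticulin, measured 10.80, 10.61 and 10.78 in MA and 12.50, 12.25 and 12.25 in DFAT. It measured 12.72, 12.10 and 11.92 in GC and 12.93 and 12.75 in DFOG. The MA samples lie more than 1 log2 unit below all the others. PDIA3 rose by 1.60 ± 0.20 (adjusted p = 0.000101) in DFAT, and its change in DFOG was 0.59 ± 0.23 (adjusted p = 0.0826), although both DFOG samples lie above all GC samples.

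PDIA6 had 11.76, 11.30 and 11.43 in MA, 12.98, 12.02 and 12.29 in DFAT, 13.18, 13.31 and 13.03 in GC and 12.76 and 13.07 in DFOG. MA is the lowest group, and apart from DFAT 1 the DFAT samples lie below the granulosa lineage, in which GC and DFOG overlap. It rose by 0.93 ± 0.24 (adjusted p = 0.0108) in DFAT, against -0.26 ± 0.27 (adjusted p = 0.575) in DFOG. PDIA4 rose by 0.85 ± 0.19 (adjusted p = 0.00441) in DFAT, with 0.20 ± 0.21 (adjusted p = 0.591) in DFOG. No other probe set of PDIA4 repeated its call in DFAT.

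Calnexin, in the ER membrane, and calreticulin, in its lumen, hold glycoproteins while they fold. CANX, encoding calnexin, measured 12.36, 12.33 and 12.38 in MA, 11.92, 11.65 and 11.70 in DFAT, 11.96, 11.58 and 11.48 in GC and 12.004 and 11.83 in DFOG. MA is the highest group, and no other sample reached it. CANX fell by 0.60 ± 0.16 (adjusted p = 0.014) in DFAT, the opposite direction to PDIA3, and its change in DFOG was 0.24 ± 0.18 (adjusted p = 0.407). A second CANX probe set, with a mean level of 11.48, fell in DFAT by 1.09 ± 0.16 (adjusted p = 0.000296) and rose in DFOG by 0.56 ± 0.18 (adjusted p = 0.0406). CALR, encoding calreticulin, measured 8.45, 8.42 and 8.0 in MA, 8.08, 8.66 and 8.45 in DFAT, 8.17, 9.71 and 8.58 in GC and 8.16 and 9.0 in DFOG. All groups overlap, 1 GC sample is the highest, and no test on CALR passed.

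P4HA2 had the largest rise of the 60 genes in fat cells, and SERPINH1 was among the 5 largest. P4HA2, a catalytic subunit of the prolyl hydroxylase that lets collagen form a stable triple helix, measured 8.61, 8.29 and 8.15 in MA and 11.31, 11.64 and 11.76 in DFAT. In GC it measured 9.62, 8.78 and 9.22, and in DFOG 10.72 and 10.57. Both cultured groups lie above both isolated ones, and DFAT lies above DFOG. P4HA2 rose by 3.22 ± 0.22 (adjusted p = 1.18e-06) in DFAT and by 1.44 ± 0.25 (adjusted p = 0.00152) in DFOG.

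SERPINH1, the chaperone of procollagen in the ER, measured 10.22, 10.47 and 10.48 in MA and 12.12, 12.06 and 12.47 in DFAT. It was 12.77, 12.20 and 12.17 in GC and 12.88 and 12.52 in DFOG. MA stands apart at the low end, and the other 3 groups lie within 1 log2 unit. SERPINH1 rose by 1.83 ± 0.20 (adjusted p = 3.81e-05) in DFAT, and its change in DFOG was 0.32 ± 0.23 (adjusted p = 0.379).

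COPII proteins build the vesicles that leave the ER: the GTPase SAR1 starts the coat, SEC23 and SEC24 form its inner layer and gather cargo, and SEC13 and SEC31 form the outer cage. Of these 10 genes, 4 rose and 2 fell in DFAT, and 5 rose and 1 fell in DFOG. Among all tested probe sets the shares were 15.7% and 16.4% in DFAT and 12.3% and 12.6% in DFOG, so the falls of these few genes were near the background. SEC24D, an isoform of the cargo-gathering subunit, measured 7.27, 7.67 and 7.61 in MA and 10.21, 10.30 and 9.92 in DFAT. The GC samples had 7.17, 6.95 and 7.20 and the DFOG samples 10.52 and 9.72. The cultured samples of both lineages lie more than 2 log2 units above all isolated ones. SEC24D rose by 2.63 ± 0.22 (adjusted p = 4.07e-06) in DFAT and by 3.01 ± 0.24 (adjusted p = 5.37e-06) in DFOG, while its relative SEC24C did not pass, with 0.08 ± 0.24 (adjusted p = 0.845) and 0.40 ± 0.26 (adjusted p = 0.341).

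SEC23A, its partner in the inner layer, measured 9.66, 9.87 and 9.80 in MA, 11.74, 11.04 and 11.20 in DFAT, 9.87, 10.00 and 9.43 in GC and 11.09 and 11.03 in DFOG. Isolated and cultured samples do not overlap in either lineage. SEC23A rose by 1.55 ± 0.21 (adjusted p = 0.000159) in DFAT and by 1.29 ± 0.23 (adjusted p = 0.00185) in DFOG, and its other probe set rose in both too. SEC23B, the second isoform, did not pass, with 0.35 ± 0.21 (adjusted p = 0.251) in DFAT and 0.32 ± 0.24 (adjusted p = 0.401) in DFOG.

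For SEC13, of the outer cage, the levels were 9.01, 9.22 and 9.42 in MA, 10.76, 9.93 and 10.13 in DFAT, 9.31, 9.25 and 9.06 in GC and 10.38 and 10.51 in DFOG. Again the cultured samples are all higher. SEC13 rose by 1.06 ± 0.21 (adjusted p = 0.00252) in DFAT and by 1.24 ± 0.24 (adjusted p = 0.00262) in DFOG. SEC31A, its cage partner, rose by 0.47 in DFAT (adjusted p = 0.0193) and by 0.74 in DFOG (adjusted p = 0.00377). Neither call was repeated by another probe set of SEC31A. SEC23IP, which binds SEC23, rose by 0.98 ± 0.19 (adjusted p = 0.00305) in DFOG.

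SEC31B, the less common isoform of the cage subunit, measured 8.42, 8.13 and 8.42 in MA and 5.30, 5.86 and 6.83 in DFAT, and 6.83, 7.33 and 7.53 in GC and 5.45 and 6.21 in DFOG. The spread within DFAT was wide, and the highest DFAT sample equals the lowest GC sample to 2 decimals. Neither culture overlaps the cells it came from. SEC31B fell by 2.33 ± 0.35 (adjusted p = 0.000387) in DFAT and by 1.40 ± 0.40 (adjusted p = 0.0235) in DFOG. Several of the cultured samples lie under 6, where a level cannot be told from background, so the size of these falls is uncertain. Both calls were lost with the actin covariate, and the one in DFOG also without GC 2, GC 3 or DFOG 1.

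The coat GTPase SAR1B measured 11.87, 12.01 and 12.07 in MA, 11.22, 10.87 and 10.88 in DFAT, 10.85, 10.80 and 10.47 in GC and 10.91 and 10.84 in DFOG. MA is the highest group and the others overlap in part. SAR1B fell by 0.99 ± 0.16 (adjusted p = 0.000605) in DFAT, and its change in DFOG was 0.17 ± 0.18 (adjusted p = 0.584). A second probe set fell in DFAT as well, by 1.0, and another, with a mean level of 5.44, gave -0.01. SAR1A was called in no comparison, with -0.07 ± 0.16 (adjusted p = 0.802) in DFAT.

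The p24 proteins, named TMED, span the membrane of ER and Golgi vesicles and sort cargo into them. TMED3 measured 7.53, 7.74 and 7.75 in MA and 9.65, 9.15 and 9.90 in DFAT. In granulosa cells it went from 9.11, 9.0 and 9.08 in GC to 10.05 and 10.19 in DFOG. Both lineages rose without overlap, from a lower start in MA. TMED3 rose by 1.89 ± 0.19 (adjusted p = 1.56e-05) in DFAT and by 1.06 ± 0.21 (adjusted p = 0.00328) in DFOG.

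TMED4 was high in GC alone, at 11.94, 11.83 and 11.41, against 10.10, 10.06 and 10.24 in MA, 10.13, 9.83 and 10.25 in DFAT and 10.79 and 10.75 in DFOG. It fell by 0.96 ± 0.20 (adjusted p = 0.00403) in DFOG, where all 3 of its probe sets fell, and its change in DFAT was -0.07 ± 0.17 (adjusted p = 0.826). TMED5 measured 10.47, 10.57 and 10.66 in MA, 9.43, 10.38 and 9.92 in DFAT, 9.19, 9.20 and 8.62 in GC and 10.09 and 9.91 in DFOG, so that the lowest group was GC and the highest MA. It rose by 0.99 ± 0.27 (adjusted p = 0.0187) in DFOG, a call lost without GC 3 or DFOG 1, and in DFAT its change was -0.66 ± 0.24 (adjusted p = 0.0569). No other probe set of TMED5 repeated its call in DFOG. Of the remaining p24 genes TMED2 rose by 0.68 ± 0.16 (adjusted p = 0.0104) in DFOG, while TMED7 and TMED10 were not called in either culture comparison.

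The COPI coat, or coatomer, returns proteins from the Golgi to the ER. Of its 7 genes 4 rose and 1 fell in DFAT, and 1 rose and 1 fell in DFOG, the latter near the shares of all probe sets just given. Its gamma subunit exists in 2 forms. COPG2 measured 9.63, 9.64 and 9.64 in MA, 8.52, 8.47 and 8.83 in DFAT, 10.10, 9.39 and 9.60 in GC and 8.32 and 8.40 in DFOG. Isolated samples of both lineages lie above all cultured ones. COPG2 fell by 1.03 ± 0.19 (adjusted p = 0.0014) in DFAT and by 1.34 ± 0.21 (adjusted p = 0.000756) in DFOG, while the other form, COPG1, rose by 1.0 ± 0.17 (adjusted p = 0.000749) in DFAT and by 0.76 ± 0.19 (adjusted p = 0.0117) in DFOG.

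COPZ2, a form of the zeta subunit, measured 10.49, 10.67 and 10.72 in MA, 11.15, 11.09 and 11.55 in DFAT, 9.91, 10.24 and 10.00 in GC and 10.23 and 10.63 in DFOG. DFAT is the highest group, and GC and DFOG overlap. COPZ2 rose by 0.63 ± 0.18 (adjusted p = 0.0186) in DFAT, against 0.38 ± 0.20 (adjusted p = 0.22) in DFOG. The common form COPZ1 rose by 0.71 ± 0.18 (adjusted p = 0.0125) and the beta subunit COPB1 rose by 0.51 ± 0.18 (adjusted p = 0.0448) in DFAT, and neither was called in DFOG. The other probe set of COPB1 did not repeat its call in DFAT. COPA, the alpha subunit, was not called in DFAT (0.33) or DFOG (0.47).

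ARF GTPases recruit COPI and clathrin adaptors to Golgi membranes, except ARF6, which works at the cell surface. ARF2 measured 8.86, 8.76 and 8.93 in MA, 9.96, 10.48 and 9.87 in DFAT, 9.41, 9.24 and 9.09 in GC and 9.19 and 9.45 in DFOG. DFAT stands above the other 3 groups. ARF2 rose by 1.25 ± 0.18 (adjusted p = 0.000299) in DFAT, where its other probe set was not called, and its change in DFOG was 0.07 ± 0.20 (adjusted p = 0.871). ARF4 rose by 0.63 ± 0.14 (adjusted p = 0.00465) in DFAT and by 0.82 ± 0.16 (adjusted p = 0.00259) in DFOG. ARF6 rose by 1.15 ± 0.25 (adjusted p = 0.00583) in DFOG, and ARF1, the main partner of COPI, was not called in any comparison, with all 12 arrays between 11.92 and 12.27.

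KDEL receptors catch soluble ER proteins that have reached the Golgi and send them back. KDELR3 measured 9.85, 9.69 and 9.68 in MA and 12.27, 11.26 and 11.57 in DFAT. In GC it measured 9.25, 9.25 and 8.68, and in DFOG 12.08 and 12.01. Every cultured sample exceeds every isolated one by more than 1 log2 unit. KDELR3 rose by 1.96 ± 0.25 (adjusted p = 0.000106) in DFAT and by 2.99 ± 0.28 (adjusted p = 1.59e-05) in DFOG, a second probe set rose in both, and another, with a mean level of 5.64, rose in DFOG. KDELR2 rose by 1.16 ± 0.30 (adjusted p = 0.0145) in DFOG, with 0.60 ± 0.27 (adjusted p = 0.116) in DFAT, and KDELR1 was called in neither (0.30 and 0.26).

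The symbols also took in 3 SEC-named genes outside this route or less well placed in it. SEC14L1 and SEC14L2 belong to the SEC14-like lipid-binding proteins. SEC14L1 rose by 1.19 ± 0.19 (adjusted p = 0.000539) in DFAT and by 0.97 ± 0.21 (adjusted p = 0.00592) in DFOG. SEC14L2, low on this array, measured 5.16, 4.81 and 5.23 in MA, 5.54, 5.63 and 5.32 in DFAT, 4.80, 4.36 and 4.28 in GC and 6.38 and 6.03 in DFOG. DFOG is its highest group, and all other samples lie under 6, where a level cannot be told from background, so the sizes of its differences, the lineage difference below included, are not well measured. It rose by 1.72 ± 0.21 (adjusted p = 0.00014) in DFOG, and its change in DFAT was 0.43 ± 0.19 (adjusted p = 0.118). SEC22C, of a family of vesicle proteins, was called in no comparison.

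Before culture, the 2 cell types differed in many of these genes. Between MA and GC, 15 were higher in MA and 15 lower, which is 50.0% called against 40.5% of all tested probe sets. Among probe sets at or above 6 in at least 2 samples, 28 of 58 genes were called, against 54% of those probe sets. The genes higher in MA are 25.0%, against 20.7% of all tested probe sets and 26.8% of named genes, and those lower in MA 25.0%, against 19.7% and 22.6%, so both shares are near those of the named genes. Every MA sample was above every GC sample in 19 genes and below in 18, against 28.4% and 24.4% of all tested probe sets. Lower in MA were all 3 disulfide isomerases, P4HA2, SERPINH1 and the peptidase subunit SEC11A. Other probe sets of PDIA3, PDIA4 and P4HA2 did not repeat the call. SERPINH1 differed by -1.99 ± 0.20 (adjusted p = 1.34e-05), PDIA6 by -1.68 ± 0.24 (adjusted p = 0.000169), SEC11A by -1.60 ± 0.14 (adjusted p = 4.13e-06) and TMED4 by -1.59 ± 0.17 (adjusted p = 2.40e-05). PDIA3 (-1.51), PDIA4 (-1.39), TMED3 (-1.39) and SSR4 (-1.29) were lower in MA by more than 1 log2 unit as well. Higher in MA were TMED5, by 1.57 ± 0.24 (adjusted p = 0.0003), SAR1B, by 1.28 ± 0.16 (adjusted p = 6.87e-05), SEC61A1, by 1.27 ± 0.23 (adjusted p = 0.00104), and SEC62, by 1.24 ± 0.21 (adjusted p = 0.000554).

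The scale bears on the direction. With the arrays centred on the poly-A controls 54 genes were lower in MA and none higher, where 84.6% of all tested probe sets were called. The median over all probe sets went from 0.07 to -1.29, and on that scale SAR1B (-0.09), SEC61A1 (-0.09) and SEC62 (-0.12) were not called. With quantile normalization applied again the split was 10 higher and 17 lower. Without GC 2 the count called was 18, and without MA 1 or MA 3 it was 19. Of all tested probe sets 35% were called without GC 2, 37.3% without MA 1 and 35.6% without MA 3, against 40.5% above. Macrophage and endothelial markers were higher in MA than in GC (7 of 7 and 5 of 7 called), and the actin difference was 1.5 to 2.47 in MA against 0.72 to 1.76 in GC. With that difference as a covariate 22 genes were called, 21 of them among the 30, where 40.8% of all tested probe sets were called.

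The interaction tests whether the 2 lineages changed differently in culture. This difference, DFAT minus MA less DFOG minus GC, was called in 15 genes, or 25.0%, against 23.3% of all tested probe sets, so the share was near the background. Among probe sets at or above 6 in at least 2 samples it was called in 15 of 58 genes, against 33.9% of those probe sets. The more positive and the more negative calls make up 13.3% and 11.7%, against 11.6% and 11.7% of all tested probe sets and 13.2% and 15.9% of named genes. In 8 genes the change was more positive in fat cells: P4HA2 (difference 1.78 ± 0.34, adjusted p = 0.00282), SERPINH1 (1.51 ± 0.30, adjusted p = 0.00411), SSR4 (1.41 ± 0.40, adjusted p = 0.0248), SEC11A (1.29 ± 0.21, adjusted p = 0.00111), PDIA6, ARF2, PDIA3 and TMED4. In 7 it was more positive in granulosa cells: TMED5 (-1.66 ± 0.36, adjusted p = 0.00633), SEC61A1 (-1.54 ± 0.35, adjusted p = 0.00784), SEC14L2 (-1.29 ± 0.29, adjusted p = 0.00721), SAR1B (-1.16 ± 0.24, adjusted p = 0.00478), SEC62, CANX and SEC63. KDELR3 (-1.03 ± 0.37, adjusted p = 0.0721) and TMED3 (0.84 ± 0.28, adjusted p = 0.0527) did not pass.

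MA and GC enter both the interaction and the contrast between MA and GC, so the 2 are not independent. For SEC11A, for example, the mean was 10.06 in MA and 11.67 in GC, and 11.11 in DFAT and 11.42 in DFOG. For TMED5 the means were 10.57 in MA, 9.0 in GC, 9.91 in DFAT and 10.00 in DFOG. Without MA 2 the count called was 8, and without GC 2 it was 9. Of all tested probe sets 19.3% and 20% were called in these runs, against 23.3% with all samples. Leaving out DFOG 1 leaves 1 DFOG sample, so no count is given for that run. On the poly-A scale 43 genes had the more positive change in fat cells and none in granulosa cells. There 70.6% of all tested probe sets were called, with a median over all of 1.38, so the count is near the background. With the actin covariate 16 were called, among them all 15, where 26.3% of all tested probe sets were called.

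**Figure D4:**
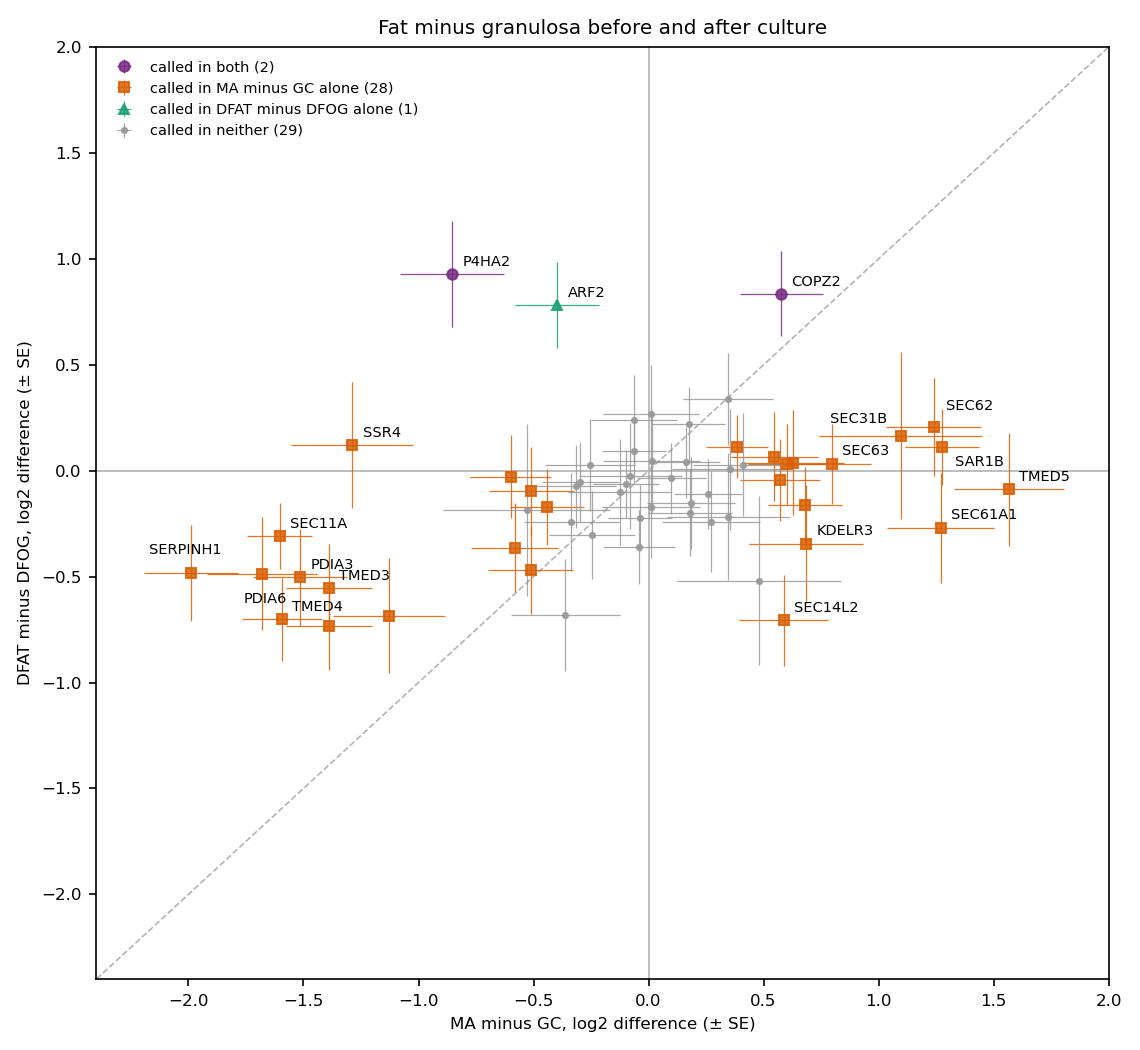
Log2 difference between the fat and granulosa lineages after culture (DFAT minus DFOG) against that before culture (MA minus GC) for the 60 genes, each with its SE from the fit and a dashed line of equal difference. Before culture the genes spread from -1.99 to 1.57, after culture from -0.73 to 0.93, and P4HA2, ARF2 and COPZ2 are the 3 called after culture.

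After culture few of the genes differed between the lineages. Between DFAT and DFOG 3 of 60 passed, all higher in DFAT, or 5.00% against 8.0% of all tested probe sets. Among probe sets at or above 6 in at least 2 samples 3 of 58 passed, against 11.6% of those probe sets. By direction, the background was 3.70% higher and 4.31% lower in DFAT among all probe sets, and among named genes 4.86% and 5.5%. Without overlap, 6 genes were higher and 13 lower, against 15.3% and 14.7%. P4HA2 differed by 0.93 ± 0.25 (adjusted p = 0.0464), COPZ2 by 0.83 ± 0.20 (adjusted p = 0.0257) and ARF2 by 0.78 ± 0.20 (adjusted p = 0.0396). None was lower in DFAT at that threshold. At an unadjusted p under 0.05 limma gave 11, with 8 lower in DFAT, among them TMED4 (-0.70 ± 0.20, adjusted p = 0.0527) and PDIA4 (-0.73 ± 0.21, adjusted p = 0.0581). The median size of the difference, without sign, was 0.46 before culture and 0.19 after it, against 0.45 and 0.20 for all tested probe sets, so the secretory genes were close to the array as a whole at both points.

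The 3 calls depended on single arrays. In the runs without an array, 1 call was made without MA 2, MA 3, DFAT 2 or DFAT 3, and 5 without DFAT 1. Of all tested probe sets 6.71% to 7.39% were called in the former runs and 8.91% in the last. Without DFOG 1 the group keeps 1 sample, so no count is given for that run. With DFOG replicates 2 and 3 as separate samples 6 passed, 3 in each direction. On the poly-A scale none passed, and with quantile normalization again 5 did, 3 higher and 2 lower. A p that misses the threshold does not show that the cultures are alike.

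Across the 4 groups together, the F-test called 41 of the 60 genes, against 50.7% of all tested probe sets. Among probe sets at or above 6 in at least 2 samples it called 41 of 58 genes, against 68.5% of those probe sets. In none of the 5 contrasts were 17 called, a count without a share of all tested probe sets to set it against. They include CALR, ARF1, COPA, SAR1A, SEC61B, SRP54, SSR2, SSR3 and 4 of the 5 signal peptidase genes. None of the disulfide isomerases or KDEL receptors is among them, nor are P4HA2 and SERPINH1.

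Several probe sets were available for 23 of the genes. Of the 14 among them called in DFAT minus MA, 7 were called the same way by another probe set, and of 11 in DFOG minus GC, 6 were. In those 2 contrasts none was called in opposite directions by its own probe sets. SRP72 was, between MA and GC, with 0.55 on the probe set used here and -0.78 on another at a lower level.

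Other genes of the route were taken from lists of known members, whose counts are to be set against the 15.7% of all tested probe sets that rose and the 16.4% that fell in DFAT, and 12.3% and 12.6% in DFOG. Of 8 collagen-modifying enzymes 7 rose in DFAT and none fell, with a median of 1.43. FKBP10, an ER isomerase that acts on collagen, rose by 4.89 ± 0.35 (adjusted p = 1.36e-06), and PLOD1, a collagen lysyl hydroxylase, rose by 2.78 ± 0.27 (adjusted p = 1.23e-05). In DFOG 2 of the 8 rose and 2 fell, and the median was 0.24. PCOLCE2, an enhancer of procollagen cleavage, rose by 6.82 ± 0.26 (adjusted p = 2.51e-08) there, and BMP1, a protease that makes that cleavage, fell by 2.80 ± 0.22 (adjusted p = 4.11e-06). Between MA and GC 6 of the 8 were lower in MA and 2 higher, against 19.7% and 20.7% of all tested probe sets. The fibroblast markers rose with this list in DFAT, 5 of 6 with a median of 3.64, and in DFOG 5 of 6 rose as well, with a median of 4.43. Their part in the result was not tested.

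ER chaperones and oxidoreductases rose in part. In DFAT 5 of 12 chaperones and co-chaperones rose and none fell, with HYOU1, an ER chaperone of the HSP70 class, 1.27 higher. In DFOG 3 rose, and SDF2L1 rose by 2.37 ± 0.33 (adjusted p = 0.000319). HSPA5, the main ER chaperone BiP, was not called in DFAT (0.16 ± 0.21, adjusted p = 0.632) or DFOG (-0.47 ± 0.24, adjusted p = 0.191). Of 9 other oxidoreductases 4 rose and 1 fell in DFAT, and 3 rose in DFOG. PRDX4, an ER peroxiredoxin, rose by 2.04 ± 0.16 (adjusted p = 2.63e-06) in DFAT and by 0.89 ± 0.18 (adjusted p = 0.00343) in DFOG. In the list for the oligosaccharyltransferase, which attaches N-glycans, and for glycan trimming, 5 of 14 rose and 1 fell in DFAT. TUSC3 rose by 2.37 ± 0.15 (adjusted p = 6.50e-07) and OSTC rose by 2.03 ± 0.22 (adjusted p = 3.47e-05), both subunits of the transferase. In DFOG 2 rose and 1 fell. Between MA and GC 6 of 12 chaperones, 5 of 9 oxidoreductases and 9 of 14 glycan genes were lower in MA, against 19.7% of all tested probe sets and 22.6% of named genes. These lists were not recomputed on the poly-A scale, which put 54 of the 60 genes lower in MA.

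Regulators of the unfolded protein response, which raises ER capacity when unfolded chains build up, were mostly lower or not called. Of 6 measured, 3 fell and none rose in DFAT, also at an unadjusted p under 0.05, and 1 rose and 2 fell in DFOG. ATF3, a stress-induced transcription factor, fell by 1.80 ± 0.25 (adjusted p = 0.00022) in DFAT and by 3.27 ± 0.28 (adjusted p = 8.89e-06) in DFOG. PPP1R15A, which ends the translational arrest of that response, fell by 1.25 in DFAT and by 2.41 in DFOG. XBP1, a transcription factor of the response, rose by 0.77 ± 0.22 (adjusted p = 0.0232) in DFOG, with 0.39 ± 0.19 (adjusted p = 0.158) in DFAT. Its spliced, active form was not measured separately here. Of 6 genes of ER-associated degradation none was called in DFAT, where limma gave 1 at an unadjusted p under 0.05, a fall. DERL1 alone was called in DFOG, where it rose by 0.95 ± 0.20 (adjusted p = 0.00407).

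Genes of vesicle traffic beyond the coats were called in both directions in fat cells. Of 15 cargo receptors and exit site proteins 4 rose and 6 fell in DFAT, and 7 rose and 1 fell in DFOG. KLHL12, a ubiquitin ligase adaptor for the COPII coat, fell by 1.64 ± 0.24 (adjusted p = 0.000251) in DFAT. YIF1A, a Golgi membrane protein, rose by 1.14 ± 0.17 (adjusted p = 0.000351) in DFAT and by 1.34 ± 0.19 (adjusted p = 0.000347) in DFOG. Of 19 tethers and SNAREs, the proteins that dock and fuse vesicles, 2 rose and 4 fell in DFAT, and 7 rose and 3 fell in DFOG. The DFAT counts of this list and of the ARF regulators below are near the background. YKT6, a SNARE, rose by 1.53 ± 0.25 (adjusted p = 0.000701) in DFAT and by 1.99 ± 0.28 (adjusted p = 0.000356) in DFOG. Among 14 ARF regulators and clathrin adaptors 2 rose and 2 fell in DFAT and 3 rose in DFOG. Of 10 genes for the SRP receptor and membrane insertion 4 rose in DFAT, the receptor subunits SRPRA (0.69) and SRPRB (0.88) among them, and 1 rose and 1 fell in DFOG.

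**Figure D5:**
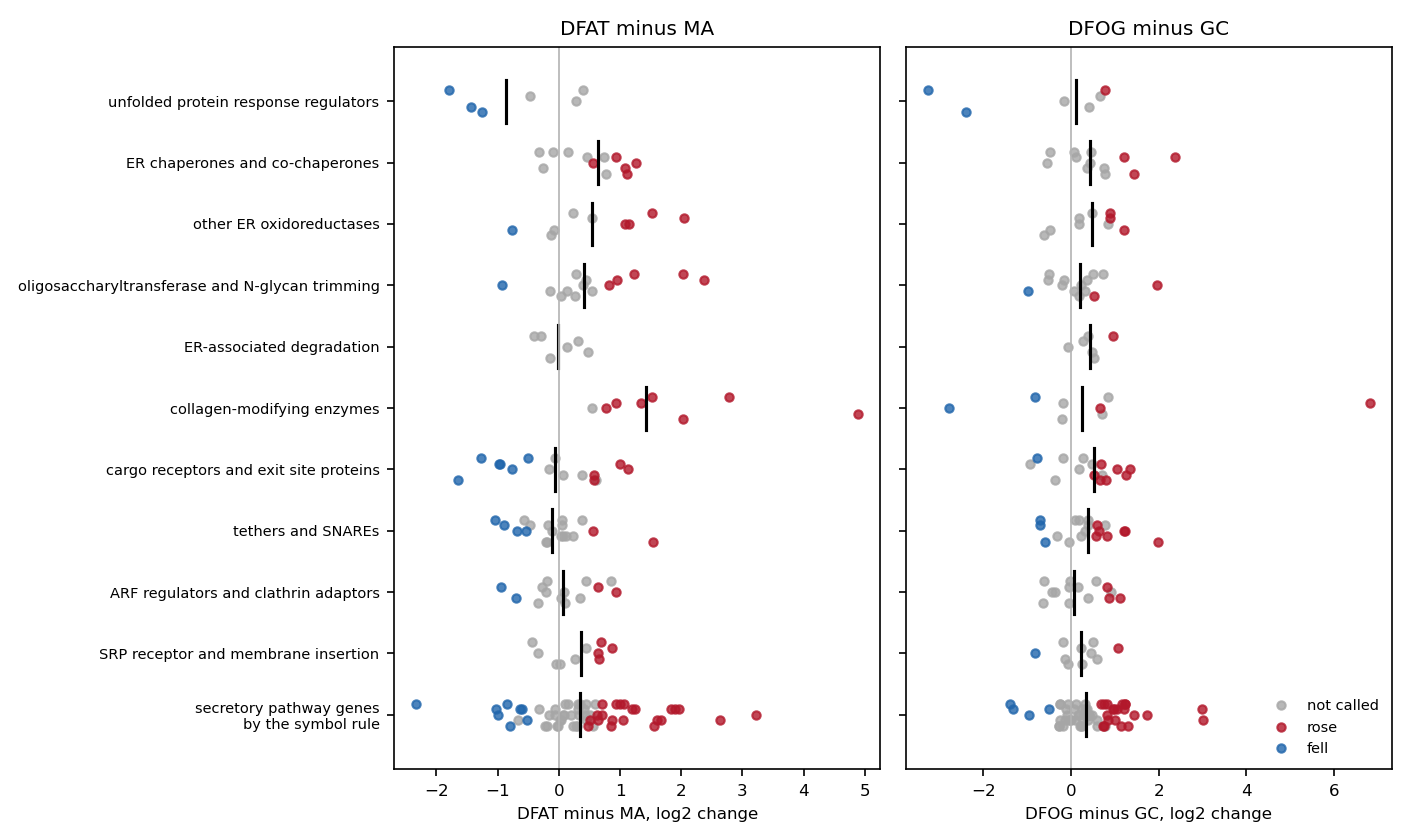
Log2 change of each measured gene of 10 further lists of the secretory route and of the 60 genes (lowest line), in DFAT minus MA (left) and DFOG minus GC (right), with red for genes that rose, blue for genes that fell, grey for genes not called and a vertical bar for each list's median. The collagen-modifying list has the highest median in DFAT, 1.43, and the unfolded protein response regulators the lowest.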

How the data were processed

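RNA was extracted with Trizol and RNeasy columns, per the labels' protocols, labelled with biotin and hybridised to 12 porcine arrays. The deposited values are log2 expression per probe set, normalized by the authors with RMA, per the submitters' processing notes; its version is not given in the sources used here. RMA sets all arrays to 1 distribution, so changes in total RNA per cell are lost and changes are relative, and low levels cannot be told from background.

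Of 24123 probe sets 124 controls were left out. A linear model over the 4 groups was fitted with limma 3.58.1 (R 4.3.3) to the other 23999, with the mean of DFOG replicates 2 and 3 as 1 sample, and gave 5 contrasts and an F-test, with p-values adjusted over all tested probe sets after Benjamini and Hochberg (threshold 0.05, moderated tests on 7 residual degrees of freedom). The scripts were tested on simulated data. Figures were drawn with Python 3.11.15 and matplotlib 3.10.9. The platform table gives 1 symbol for 10069 probe sets, several for 198 and none for 13732; only the first were named.

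Values of every sample are given for the 8 largest rises and 4 largest falls called in each culture comparison, for the 4 largest per direction in the other contrasts, and for SERPINH1, CANX and CALR. From each list up to 4 called genes per contrast could be named, and uncalled genes named beside them were chosen after their values were seen. The members and lists were chosen with earlier results of these data known. The alternatives were 25 settings: other normalization, weights, blocks, covariates, filters, probe set choices and thresholds, and leaving out each array. Samples that share a replicate number were checked for pairing: their deviations correlated at 0.0999 to 0.168 in the fat and 0.355 to 0.604 in the granulosa lineage. The number of arrays limits the precision.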

Additional observations from a re-analysis of the deposited data

Results flagged for a closer look

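In 15 genes the change with culture differed between the fat and granulosa lineages, by a test of that difference itself in limma (adjusted p under 0.05, interaction, 23.3% of all tested probe sets). More positive in fat cells, on the log2 scale, were P4HA2 by 1.78, SERPINH1 by 1.51, SSR4 by 1.41, SEC11A by 1.29, PDIA6 by 1.19, ARF2 by 1.18, PDIA3 by 1.01 and TMED4 by 0.89. More positive in granulosa cells were TMED5 (-1.66), SEC61A1 (-1.54), SEC14L2 (-1.29), SAR1B (-1.16), SEC62 (-1.03), CANX (-0.84) and SEC63 (-0.76). P4HA2, SAR1B, SEC11A, SEC14L2, SEC61A1, SERPINH1 and TMED5 were called in all 12 runs that left out an array. ARF2 lost its call without DFOG 1, PDIA3 and SSR4 without any of 4 arrays, PDIA6 without any of 5, TMED4 of 6, CANX of 7, SEC62 of 8 and SEC63 of 9.

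Other probe sets of the same gene repeated 6 of these calls in the 9 genes that have several. The exceptions were ARF2, P4HA2 and PDIA3.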

How the results depend on the processing

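The counts are of the 60 genes, and 30 (DFAT minus MA), 25 (DFOG minus GC), 15 (interaction), 30 (MA minus GC), 3 (DFAT minus DFOG) and 41 (F-test) stand as given above. In brackets is the share of all tested probe sets called in the same setting. DFAT minus MA counted 17 with the actin 3′ to 5′ covariate (21.6%) and 15 at a change of at least 2-fold (19.9%). DFOG minus GC counted 16 on the poly-A scale (45.8%) and 13 with the covariate (18%). It counted 16 at an adjusted p under 0.01 (15.7%) and 13 at 2-fold (17%). The interaction counted 43 on the poly-A scale (70.6%), 9 with the lowest probe set per gene (23.3%) and 8 at 0.01 (14.4%). MA minus GC counted 54 on the poly-A scale (84.6%), 16 at 0.01 (29.9%) and 14 at 2-fold (25.7%). DFAT minus DFOG counted 6 with DFOG replicates 2 and 3 as separate samples, 6 with the replicate block as well, 5 each with quantile normalization again, array weights, and a trend with robust variance, 1 each with the mean or the lowest probe set, and 0 on the poly-A scale, with only the compared groups fitted, at 0.01 and at 2-fold. Without 1 array the counts ran from 26 to 32, 15 to 26, 7 to 16, 18 to 30, 0 to 5 and 37 to 44, in the order above. The replicate number as a block was fitted with DFOG replicates 2 and 3 as separate samples, which alone gave 31, 27, 17, 30, 6 and 45, and the block then gave 34, 28, 19, 30, 6 and 44. The samples share only a number: in fat cells each sample correlated best with its own number, while DFOG 3 correlated better with GC 2 (0.51) than with GC 3 (0.36).

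Of the single-gene results 979 kept direction and side of the threshold, 79 lost their call and 9 reversed in sign. None of the 9 was called in the new direction, with adjusted p in limma from 0.145 to 0.796. The reversed ones were, on the poly-A scale, the interaction of SEC14L2 (0.14) and SAR1B (0.27) and MA minus GC of SAR1B (-0.09), SEC61A1 (-0.09) and SEC62 (-0.12), and with the lowest probe set the interaction of TMED5 (0.46) and SAR1B (0.57) and MA minus GC of TMED5 (-0.19) and SAR1B (-0.54). The poly-A centring adds 1 shift to all genes of an array, and the cause of the controls' own differences was not tested. DFOG rests on 2 samples.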

Other observations

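COPII and COPI subunits with more than 1 form did not all move together. In DFAT and DFOG alike COPG1 rose and COPG2 fell, SEC31A rose and SEC31B fell, and SEC24D rose while SEC24C was not called. With the actin covariate COPG1 and SEC31B were called in neither comparison, and SEC31A was not called in DFAT. No other probe set of SEC31A repeated its calls, and several cultured samples of SEC31B lie under 6. The means of COPG1 were 9.38 in MA, 10.38 in DFAT, 9.68 in GC and 10.44 in DFOG. The differences between paired forms were not tested, and levels of different probe sets are not comparable.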
